A study of Homo sapiens and Mus musculus with 18 samples.

Results

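HMOX1 and 9 further genes of the NRF2 pathway were followed in 2 lymphoma cell lines after irradiation: NFE2L2, GCLM, GCLC, GSR, GPX1, TXNRD1, SRXN1, PRDX1 and PGD. They were taken by gene symbol. All 10 were found in the table of the human line BL41 (15069 genes), and their 10 mouse counterparts in the table of the mouse line J3D (12264 genes). RNA was sequenced 12 h after 5 Gy of protons, 5 Gy of X-rays or sham handling, with 3 libraries per group and line, 18 in all. Proton-treated cells lay in the middle of a spread-out Bragg peak of a scanned beam (129.3 to 148.2 MeV/u, median linear energy transfer 3.5 keV/µm). X-rays came from a 6 MV linear accelerator, and sham cells were left at room temperature outside the incubator meanwhile. BL41 is an established line of human Burkitt lymphoma, and the labels give J3D the same tumour type. No genetic change or drug is named for any group. The labels do not say that the 3 libraries of a group were separate cultures, so each p-value reflects the spread among these libraries alone, and that spread may be technical.

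NRF2, the product of NFE2L2, is a transcription factor that KEAP1 and the CUL3 ubiquitin ligase mark for destruction in unstressed cells. Oxidants and electrophiles modify KEAP1, NRF2 then accumulates, pairs with small MAF proteins and binds antioxidant response elements in its target genes. BACH1 occupies the same elements as a repressor and leaves them when it binds haem. Ionizing radiation makes reactive oxygen species from water, which is why this pathway is often examined in irradiated cells.

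The deposited values are logarithms, read as log2, of expression relative to a baseline within each library number (1 to 3), so they carry no absolute level and genes cannot be ranked by abundance. The sequencing depth is unknown. In bulk RNA of this kind, fewer cells with a transcript and less transcript per cell cannot be told apart. All 5 B-cell markers checked (CD79A, CD79B, MS4A1, PAX5 and CD22) were in the BL41 table, beside 2 of 6 markers of T and NK cells (CD3E and NKG7), 1 of 6 myeloid ones (CD163) and 1 of 3 erythroid ones (HBB). In J3D 1 of these 5 was in the table, Cd22, beside 2 of 3 erythroid markers (Gata1 and Klf1), 2 of 6 myeloid ones (Cd14 and Cd68) and 0 of 6 of T and NK cells, so the labelled cell type of J3D was not borne out by this marker list. The J3D libraries of number 1 stood apart, with interquartile ranges over all genes of 0.371 (proton), 0.395 (X-ray) and 0.342 (sham), against 0.140 to 0.238 in the other 6.

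Promoter sequences are shown for the genes that differed from sham in BL41 and had a RefSeq entry, GCLM, GCLC and PGD, and for the second start of TXNRD1, because its motif resembles that of GCLM. RefSeq entries (GRCh38.p14) were found for 7 of the 10 genes, with 9 starts in all. Each line gives the 250 bases before the start, 5′ to 3′ in the direction of the gene. Capitals mark the core of the antioxidant response element, TGACNNNGC, searched on both strands. A match describes letters and is no evidence of NRF2 binding.
GCLM: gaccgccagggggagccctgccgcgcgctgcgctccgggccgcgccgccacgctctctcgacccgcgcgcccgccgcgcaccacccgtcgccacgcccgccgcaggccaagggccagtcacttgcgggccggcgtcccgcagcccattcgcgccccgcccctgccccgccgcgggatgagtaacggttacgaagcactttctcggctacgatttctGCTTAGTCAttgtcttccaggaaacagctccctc
GCLC: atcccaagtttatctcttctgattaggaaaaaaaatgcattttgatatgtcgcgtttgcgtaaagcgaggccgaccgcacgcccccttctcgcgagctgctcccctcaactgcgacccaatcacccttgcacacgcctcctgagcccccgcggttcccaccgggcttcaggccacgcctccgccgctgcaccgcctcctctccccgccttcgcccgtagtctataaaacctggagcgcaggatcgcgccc
PGD: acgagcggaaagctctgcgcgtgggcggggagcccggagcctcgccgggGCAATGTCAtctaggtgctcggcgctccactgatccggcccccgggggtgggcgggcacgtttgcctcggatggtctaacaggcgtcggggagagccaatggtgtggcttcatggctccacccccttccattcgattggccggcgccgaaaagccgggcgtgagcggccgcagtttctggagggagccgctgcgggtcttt
TXNRD1: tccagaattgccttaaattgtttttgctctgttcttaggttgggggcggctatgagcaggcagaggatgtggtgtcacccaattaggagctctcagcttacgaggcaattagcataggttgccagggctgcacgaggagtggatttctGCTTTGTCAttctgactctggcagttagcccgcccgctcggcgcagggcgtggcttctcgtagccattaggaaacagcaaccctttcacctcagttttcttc

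The GCLM window lies at chr1:93909431-93909680 on the minus strand, the GCLC window at chr6:53545102-53545351 on the minus strand, the PGD window at chr1:10398814-10399063 on the plus strand and the TXNRD1 window at chr12:104286782-104287031 on the plus strand. On the strand opposite to the printed one, the GCLM match reads TGACTAAGC, that of TXNRD1 TGACAAAGC and that of PGD TGACATTGC. The GCLM and TXNRD1 matches share 8 of 9 bases and also the 7 bases printed before them. Every match shares the bases outside NNN by definition, and this pair is shown because it is alike. How often unrelated windows are this alike was not tested. Counted from the start, the GCLM match runs from base −34 to −26, that of TXNRD1 from −102 to −94 and that of PGD from −201 to −193. Matches were present in 4 of the 9 windows, both TXNRD1 starts among them, against 10.9% of 35116 promoter windows of the same length. No match was found in the windows of GCLC, SRXN1, GPX1 or NFE2L2. HMOX1 is not among the promoters shown.

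HMOX1 was the gene of this group with the highest fold change in irradiated BL41 cells. It encodes haem oxygenase 1, which breaks haem down to biliverdin, iron and carbon monoxide. Its deposited values were 0.46, 0.27 and 0.29 in libraries 1, 2 and 3 after protons and 0.18, 0.38 and 0.44 after X-rays, against −0.95, −0.83 and −1.21 in sham cells. Every irradiated library lay above every sham library. HMOX1 rose by 1.34 ± 0.16 on the log2 scale after protons (SE, n = 3 for each group; limma adjusted p = 0.0129) and by 1.33 ± 0.16 after X-rays (limma adjusted p = 0.011). Within numbers 1, 2 and 3 the difference from sham was 1.415, 1.097 and 1.503 after protons, and 1.131, 1.205 and 1.655 after X-rays. Ordered from the highest fold change, it stood at place 24 of 15069 after protons and at place 22 after X-rays. With the library number as a replicate block, the limma adjusted p was 0.122 after protons and 0.0942 after X-rays, so neither call was kept (95% intervals 0.84 to 1.83 and 0.84 to 1.82). The SE was 0.21 with the block for either beam, against 0.16 without it. Without X-ray library 1, HMOX1 was at 1.41 after X-rays and was not called, as were 0 of all genes. Without proton library 1, 2 or 3 it was at 1.28, 1.37 and 1.36 after protons and was not called, while 3, 10 and 0 of all genes were.

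PGD also rose after both beams in BL41. It encodes 6-phosphogluconate dehydrogenase, which makes NADPH in the pentose phosphate pathway. Its values were 0.089, 0.12 and 0.068 after protons and 0.055, 0.12 and 0.0099 after X-rays, against −0.22, −0.35 and −0.22 in sham cells. The irradiated and sham libraries did not overlap. PGD was higher by 0.36 ± 0.07 after protons (limma adjusted p = 0.0311, or 0.161 with the replicate block) and by 0.32 ± 0.07 after X-rays (limma adjusted p = 0.0378, or 0.18 with the block).

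Both subunit genes of glutamate-cysteine ligase passed the test after protons. GCLC is the catalytic and GCLM the modifier subunit of this enzyme, which sets the rate of glutathione synthesis. GCLC had values of 0.31, 0.17 and 0.15 after protons and −0.12, −0.069 and −0.17 after X-rays, against −0.13, −0.17 and −0.13 in sham cells. The proton libraries lay above all 6 others, while X-ray and sham libraries overlapped. GCLC rose by 0.36 ± 0.07 after protons (limma adjusted p = 0.0284, or 0.152 with the replicate block), and its fold change after X-rays was 0.023 ± 0.067 (limma adjusted p = 0.876). GCLM had values of 0.29, 0.085 and 0.10 after protons and −0.20, 0.053 and −0.092 after X-rays, against −0.30, −0.21 and −0.21 in sham cells. Here the proton libraries were highest, the sham libraries lowest and no groups overlapped. GCLM rose by 0.40 ± 0.10 after protons (limma adjusted p = 0.0476, or 0.18 with the replicate block) and stood at 0.16 ± 0.10 after X-rays (limma adjusted p = 0.365). In 9 fits with 1 library left out, GCLC was called in 4 and GCLM in 0 after protons. With libraries scaled by their trimmed means neither passed (limma adjusted p = 0.0752 for GCLC and 0.143 for GCLM).

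Glutathione recycling and use were covered by GSR and GPX1, neither of which passed the test in BL41. GSR, the reductase that returns oxidised glutathione to its reduced form, had values of 0.092, 0.16 and 0.029 after protons and −0.093, −0.0005 and −0.11 after X-rays, against −0.12, −0.25 and −0.013 in sham cells. Its proton libraries lay above the others, with a fold change of 0.22 ± 0.08 after protons (limma adjusted p = 0.121) and 0.059 ± 0.082 after X-rays (0.719). GPX1, the selenium-containing peroxidase that uses glutathione, had values of 0.23, 0.040 and −0.070 after protons and −0.16, 0.065 and 0.045 after X-rays, against −0.37, 0.030 and −0.083 in sham cells. These groups overlapped, and the fold changes were 0.21 ± 0.12 after protons (limma adjusted p = 0.292) and 0.12 ± 0.12 after X-rays (0.582). Without number 1 the GPX1 fold change after protons was 0.012. GENCODE 29 lists 2 pseudogenes named after GPX1 and 1 each after PRDX1 and PGD, so reads may be shared and their values are uncertain.

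**Figure D1:**
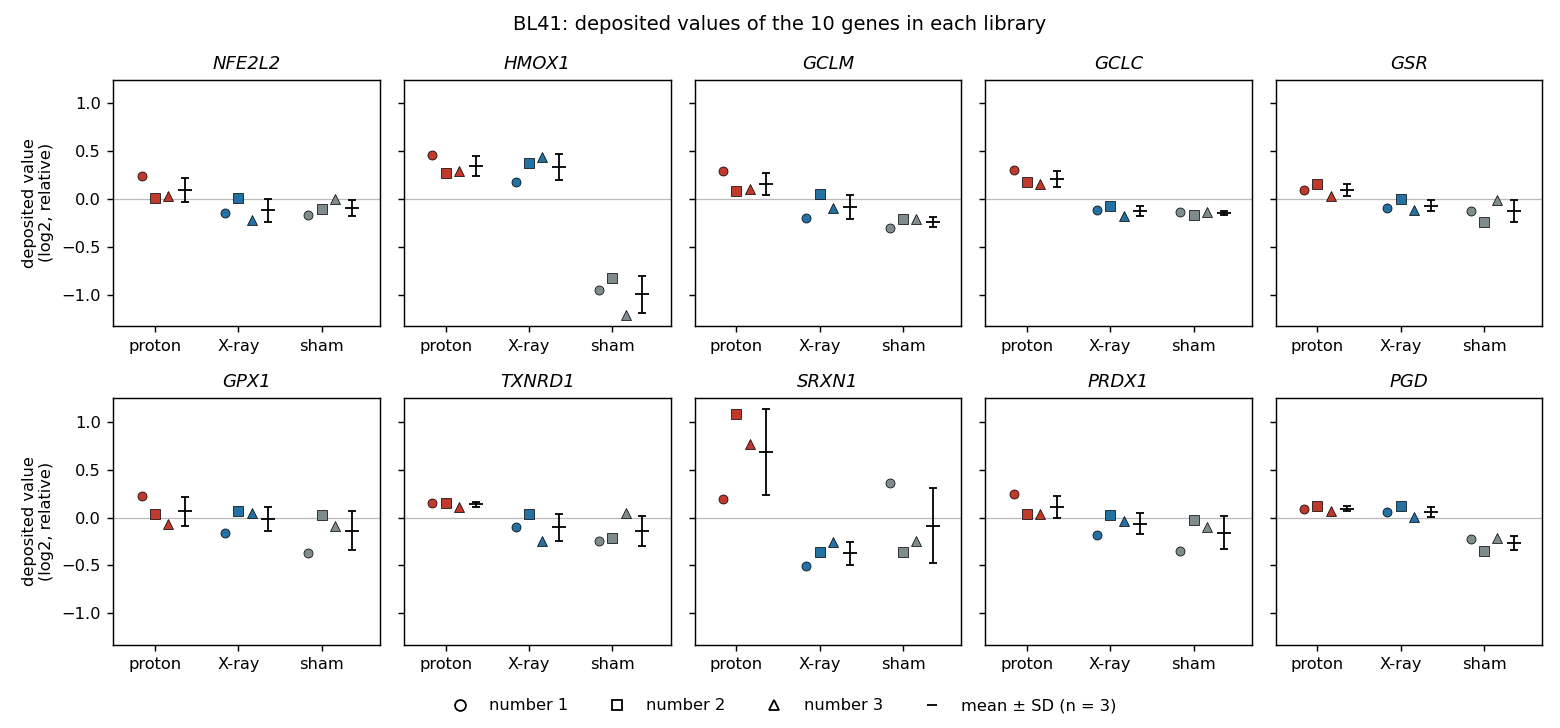
Deposited values (log2, relative; vertical axis) of the 10 genes in the 9 BL41 libraries, by group (proton, X-ray, sham) and library number (marker shape), with mean and SD beside each group. HMOX1 lies between 0.18 and 0.46 in the 6 irradiated libraries and between −1.21 and −0.83 in the 3 sham libraries.

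The members TXNRD1, PRDX1 and SRXN1 of the thioredoxin system did not pass in BL41. TXNRD1, the selenium-containing reductase that keeps thioredoxin reduced, had values of 0.15, 0.15 and 0.11 after protons and −0.10, 0.042 and −0.24 after X-rays, against −0.25, −0.21 and 0.043 in sham cells. Its fold change was 0.27 ± 0.10 after protons (limma adjusted p = 0.12), with the proton libraries above all others, and 0.036 ± 0.101 after X-rays (0.873). PRDX1, a peroxiredoxin that reduces hydrogen peroxide with electrons from thioredoxin, was at 0.24, 0.041 and 0.038 after protons and at −0.18, 0.028 and −0.031 after X-rays, against −0.35, −0.024 and −0.098 in sham cells. The proton libraries again lay highest, and the fold changes were 0.26 ± 0.11 (limma adjusted p = 0.152) and 0.096 ± 0.109 (0.647). After protons PRDX1 was at 0.17 without sham library 1 and at 0.10 without number 1. SRXN1, the sulfiredoxin that repairs over-oxidised peroxiredoxins, had values of 0.20, 1.08 and 0.77 after protons and −0.50, −0.36 and −0.26 after X-rays, against 0.36, −0.36 and −0.25 in sham cells. Its SD was the largest of the 10 genes after protons (0.45) and in sham cells (0.39), and in number 2 its X-ray and sham values differed by 1.38e-06. Its fold changes were 0.77 ± 0.25 after protons (limma adjusted p = 0.0932) and −0.29 ± 0.25 after X-rays (0.532), and within numbers the proton difference was −0.16, 1.44 and 1.02.

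The transcript of NRF2 itself did not pass. NFE2L2 had values of 0.24, 0.013 and 0.034 after protons and −0.15, 0.0098 and −0.22 after X-rays, against −0.16, −0.11 and −0.0003 in sham cells. The proton libraries lay just above the sham libraries and the X-ray libraries overlapped with them, with fold changes of 0.19 ± 0.10 (limma adjusted p = 0.237) and −0.029 ± 0.096 (0.892). After protons it was at 0.11 without proton library 1 and at 0.077 without number 1. NRF2 is controlled mainly through the stability of its protein, which RNA does not show. No source used here says whether the sequencing was stranded. In GENCODE 29, exons of NFE2L2 overlap those of AGPS and of the antisense RNA AC079305.1 on the opposite strand. They also overlap AC019080.1 on the same strand. Exons of PRDX1 overlap those of MMACHC on the opposite strand, and exons of GCLC overlap an antisense RNA. Exons of SRXN1 overlap the gene AL121758.1 on the same strand. Reads of these pairs may therefore not have been told apart.

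The 10 genes were named with earlier results of these data known, so the counts given here and for J3D are a description. Counted together, 4 of 10 genes rose and 0 fell after protons in BL41 (limma), where 5.91% of all genes were called higher and 0.903% lower. After X-rays 2 rose and 0 fell, where 4.83% were called higher and 0.518% lower. Leaving out 1 library of any group gave 0 to 3 calls after protons and 0 to 2 after X-rays. Over these 9 fits HMOX1 was called in 6 after protons and 8 after X-rays, PGD in 4 and 1 (that without sham library 1), GCLC in 4 after protons and GCLM in 0 after protons. After protons, PGD and GCLC were both lost without any 1 of the proton libraries or without sham library 3, PGD also without X-ray library 1 and GCLC also without sham library 2. With the replicate block 0 of 10 were called for either beam, as were 0 of all genes. At an unadjusted p under 0.05, 8 of 10 passed after protons (28.4% of all genes) and 2 after X-rays (23.6%). With the block these counts were 5 (18.8%) and 2 (16.1%). All libraries of a beam lay above all sham libraries for 8 of 10 genes after protons (28.0% of all genes) and for 3 after X-rays (21.6%). The fold change was above 0 for 10 of 10 genes after protons (71.6%) and for 8 of 10 after X-rays (68.5%), or 10 and 4 with libraries scaled by their trimmed means. The median fold change of the 10 genes was 0.31 after protons and 0.077 after X-rays, and over all genes it was 0.12 and 0.093. That scaling brought the shift of all genes to 0.0044 after protons and −0.0056 after X-rays and left 2.28% and 2.22% of all genes called. HMOX1 then kept its call (1.22, limma adjusted p = 0.0178 after protons, and 1.23, 0.0168 after X-rays). PGD (0.24 and 0.22), GCLC (0.24 after protons) and GCLM (0.29 after protons) did not. In all, 891 genes were higher and 136 lower after protons, or 159 and 184 with trimmed means, and 728 and 78 after X-rays, or 211 and 124. With 1 library left out the calls over all genes ran from 0 (without proton library 3) to 710 after protons, and from 0 (without X-ray library 1) to 808 after X-rays.

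Setting protons against X-rays asks whether the beams differed in BL41 at the same physical dose. None of the 10 genes and 0 of all genes passed (limma; 4 of 10 and 11.8% of all genes had an unadjusted p under 0.05, and 2 of 10 and 5.24% with the replicate block). For HMOX1 the difference was 0.0082 ± 0.165 (limma adjusted p = 0.991), with 95% intervals of −0.36 to 0.38 without and −0.49 to 0.50 with the block. PGD differed by 0.031 ± 0.072, with a 95% interval of −0.13 to 0.19 (−0.19 to 0.26 with the block). These intervals bound the difference and do not show that the beams acted alike. GCLC differed by 0.33 ± 0.07, with a 95% interval of 0.18 to 0.48, and stood at place 28 of 15069 by unadjusted p, but it missed the threshold (limma adjusted p = 0.372, or 0.769 with the replicate block). SRXN1 differed by 1.06 ± 0.25 (limma adjusted p = 0.393), with differences within numbers of 0.70, 1.44 and 1.03. In number 2 its X-ray and sham values were both at −0.36, within 1.38e-06 of each other. Such values may lie at the lowest measurable level, which cannot be told without absolute levels. For 7 of 10 genes all proton libraries lay above all X-ray libraries, against 11.0% of all genes, and all 10 fold changes were above 0 (9 with trimmed means, HMOX1 being at −0.0085), against 54.0%. Number 1 gave the largest of the 3 differences for 7 of 10 genes, and without it the median fell to 0.12, against 0.19 with it, GCLM standing at 0.11 and PRDX1 at 0.042. The 7 genes without overlap were NFE2L2, GCLM, GCLC, GSR, TXNRD1, SRXN1 and PRDX1. These members were named with earlier results of these data known, so the counts are a description.

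**Figure D2:**
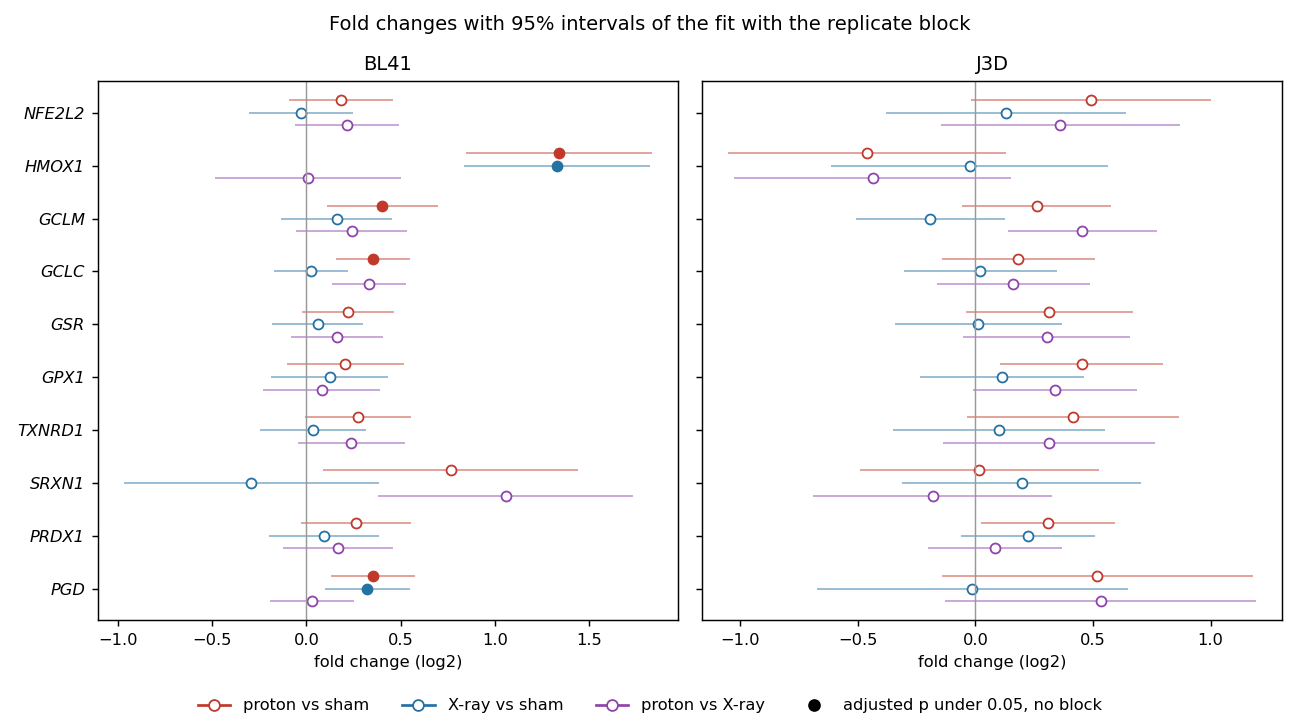
Fold changes (log2, horizontal axis) of the 10 genes for proton against sham, X-ray against sham and proton against X-ray in BL41 and J3D, with 95% intervals of the fit with the replicate block. Filled points passed limma without the block: HMOX1 and PGD after both beams and GCLM and GCLC after protons, all in BL41.

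Further genes of the pathway were read from lists arranged by role, which were also chosen with earlier results of these data known. Of 54 genes, 49 were in the BL41 table. After protons 5 of 49 rose and 0 fell (5.91% of all genes called higher), with a median fold change of 0.15, and after X-rays 6 of 49 rose and 0 fell (4.83%), with a median of 0.091. With the replicate block 0 of 49 were called for either beam. Among 8 genes of haem and iron handling the haem transporter gene SLC48A1 rose, by 0.54 ± 0.09 after protons (limma adjusted p = 0.022, or 0.14 with the block) and 0.50 ± 0.09 after X-rays (0.0239, or 0.126). Its values were 0.23, 0.095 and 0.24 after protons and 0.064, 0.23 and 0.16 after X-rays, against −0.18, −0.43 and −0.44 in sham cells, so no irradiated library overlapped with sham. Among 12 glutathione genes, the glutaredoxin GLRX rose by 0.52 ± 0.09 after protons (limma adjusted p = 0.0201, or 0.14 with the block) and by 0.58 ± 0.09 after X-rays (0.0176, or 0.113). Glutathione synthetase, GSS, was at 0.20 ± 0.07 after protons (limma adjusted p = 0.126) and rose by 0.36 ± 0.07 after X-rays (0.0301, or 0.157 with the block). The mitochondrial thioredoxin reductase TXNRD2 rose by 0.44 ± 0.07 after protons (limma adjusted p = 0.0184, or 0.148 with the block) and by 0.42 ± 0.07 after X-rays (0.0199, or 0.126), as the 1 called gene of 9 in its group.

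Of 8 detoxification genes 2 rose after each beam, where 5.91% (protons) and 4.83% (X-rays) of all genes were called higher. With the block 0 of these 8 were called, as were 0 of all genes. EPHX1, an epoxide hydrolase, had the highest fold change of the called further genes after X-rays. It rose by 0.50 ± 0.08 after protons (limma adjusted p = 0.018, or 0.131 with the block) and by 0.80 ± 0.08 after X-rays (0.00502, or 0.0718). The quinone reductase NQO2 rose by 0.45 ± 0.08 after protons (limma adjusted p = 0.0265, or 0.151 with the block) and by 0.40 ± 0.08 after X-rays (0.0301, or 0.139). Its relative NQO1, a widely used NRF2 target, was at 0.86 ± 0.25 after protons (limma adjusted p = 0.0712) and 0.39 ± 0.25 after X-rays (0.387), with proton differences of 1.48, 0.41 and 0.68 in the 3 numbers. Of 4 NADPH supply genes, 0 passed for either beam. Of 8 genes that control NRF2, 0 passed for either beam. Their fold changes ran from −0.097 to 0.47 after protons and from −0.067 to 0.31 after X-rays. At the shares called over all genes, 0 calls in lists this short say little. KEAP1 was at 0.23 ± 0.12 after protons and −0.011 ± 0.120 after X-rays, and BACH1 at 0.12 ± 0.11 and 0.052 ± 0.110. The cystine transporter SLC7A11 was at 0.25 ± 0.13 and 0.32 ± 0.13. With trimmed means SLC48A1 and TXNRD2 kept their calls after both beams, and GLRX and EPHX1 theirs after X-rays, while the others were lost.

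**Figure D3:**
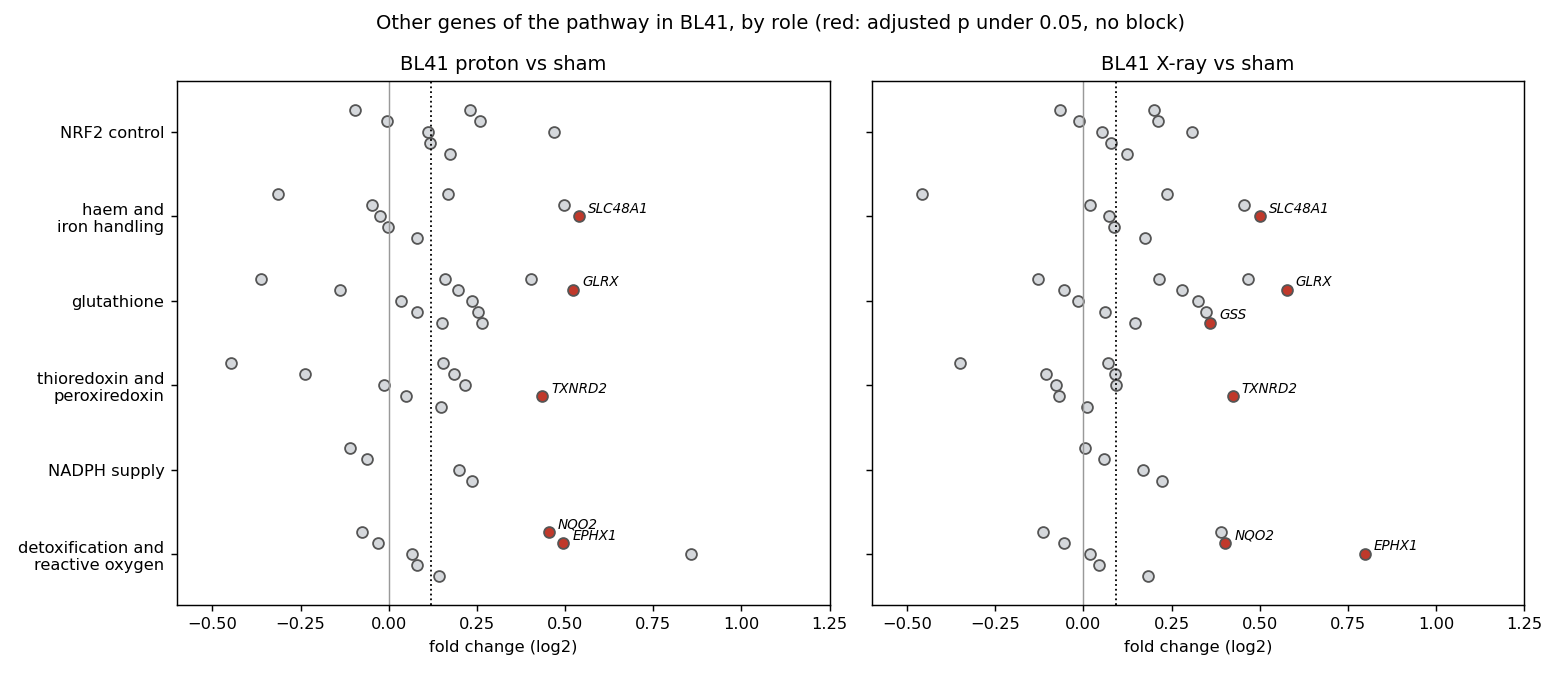
Fold changes (log2, horizontal axis) of the 49 further pathway genes in BL41 by role, for protons against sham and X-rays against sham. Red points passed limma without the block, 5 after protons and 6 after X-rays, and the dotted line is the median of all genes (0.12 and 0.093).

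Genes with the pattern most like that of HMOX1 over the 9 BL41 libraries were the cytokine receptor gene IL27RA (Pearson r = 0.985), the deubiquitinase gene USP5 (0.985), the receptor gene GPR161 (0.984), C3orf33 (0.984) and GLRX (0.980). Their fold changes were smaller than that of HMOX1, from 0.34 for USP5 to 0.62 for GPR161 after protons and from 0.31 to 0.60 after X-rays. Among the other 9 genes PGD was closest to HMOX1 (r = 0.915) and SRXN1 farthest (0.196). These r describe 9 libraries that share 3 groups and a centring, and carry no test. Macrophages are rich in haem oxygenase 1. Of 6 myeloid markers, 5 (CD14, CD68, CSF1R, ITGAM and LYZ) were not among the genes of the BL41 table. The sixth, CD163, a scavenger receptor for haemoglobin, was at 0.58 ± 0.15 after protons (limma adjusted p = 0.0533) and rose by 0.64 ± 0.15 after X-rays (0.0457, or 0.14 with the block and 0.0901 with trimmed means), and its part in the HMOX1 result was not tested.

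In J3D no gene of this group passed against sham. After protons 0 of 10 and 0 of all 12264 genes were called (limma), and 5 of 10 had an unadjusted p under 0.05, against 19.8% of all genes (2 of 10 and 9.25% with the replicate block). After X-rays 0 of 10 and 0 of all genes were called, and 1 of 10 had an unadjusted p under 0.05, against 6.24% (0 of 10 and 3.37% with the block). Hmox1 had values of −0.54, −0.13 and 0.030 after protons and 0.47, −0.32 and 0.50 after X-rays, against 0.45, 0.035 and 0.25 in sham cells. All proton libraries lay below all sham libraries, if by little (0.030 against 0.035 for the nearest pair), while X-ray and sham libraries overlapped. Its fold change was −0.46 ± 0.25 after protons (limma adjusted p = 0.284) and −0.025 ± 0.251 after X-rays (limma adjusted p = 1), with blocked 95% intervals of −1.05 to 0.13 and −0.61 to 0.56. Number 1 carried much of the proton value, with differences of −0.996, −0.17 and −0.22 in the 3 numbers, and without that number the fold change was −0.19.

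Most other members lay above sham after protons in J3D. Gpx1 had values of 0.29, 0.26 and 0.064 after protons and −0.28, 0.036 and −0.16 after X-rays, against −0.35, −0.27 and −0.13 in sham cells. All its proton libraries lay above the other 6, with fold changes of 0.45 ± 0.13 after protons (limma adjusted p = 0.247) and 0.11 ± 0.13 after X-rays (0.986). Prdx1 had values of 0.20, 0.077 and −0.0059 after protons and −0.14, 0.098 and 0.056 after X-rays, against −0.22, −0.19 and −0.25 in sham cells. Both irradiated groups lay above sham without overlap, at 0.31 ± 0.10 (limma adjusted p = 0.247) and 0.22 ± 0.10 (limma adjusted p = 0.8). Prdx1 was the 1 member of 10 whose X-ray and sham libraries did not overlap, against 4.62% of all genes that were higher in this way. After protons 6 members lay above sham without overlap (24.4% of all genes), Nfe2l2, Gsr, Gpx1, Txnrd1, Prdx1 and Pgd, and 1 below it, Hmox1 (14.2%).

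The size of the J3D values depended on the libraries of number 1. Pgd had values of 0.62, 0.0042 and 0.0996 after protons and −0.67, 0.12 and −0.32 after X-rays, against −0.67, −0.098 and −0.064 in sham cells. Library 1 was the highest after protons and the lowest in both other groups. Its fold change after protons was 0.52 ± 0.26 (limma adjusted p = 0.267) and 0.13 without number 1. Nfe2l2 had values of 0.49, 0.083 and 0.023 after protons and −0.52, 0.047 and −0.015 after X-rays, against −0.50, −0.18 and −0.19 in sham cells. Again library 1 stood at the extreme of each group, and the fold change after protons was 0.49 ± 0.20 (limma adjusted p = 0.247), or 0.24 without number 1. Txnrd1 and Gsr stood at 0.41 ± 0.18 and 0.31 ± 0.14 after protons, or 0.23 and 0.19 without number 1. Over the 10 genes the median fold change after protons was 0.31, or 0.17 without number 1, and over all genes it was 0.046 and 0.042. The fold change was above 0 for 9 of 10 genes after protons (8 with trimmed means; 57.0% of all genes) and for 7 after X-rays (50.7%). The wider spread of the number 1 libraries moves with these values, and its part in them was not tested.

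**Figure D4:**
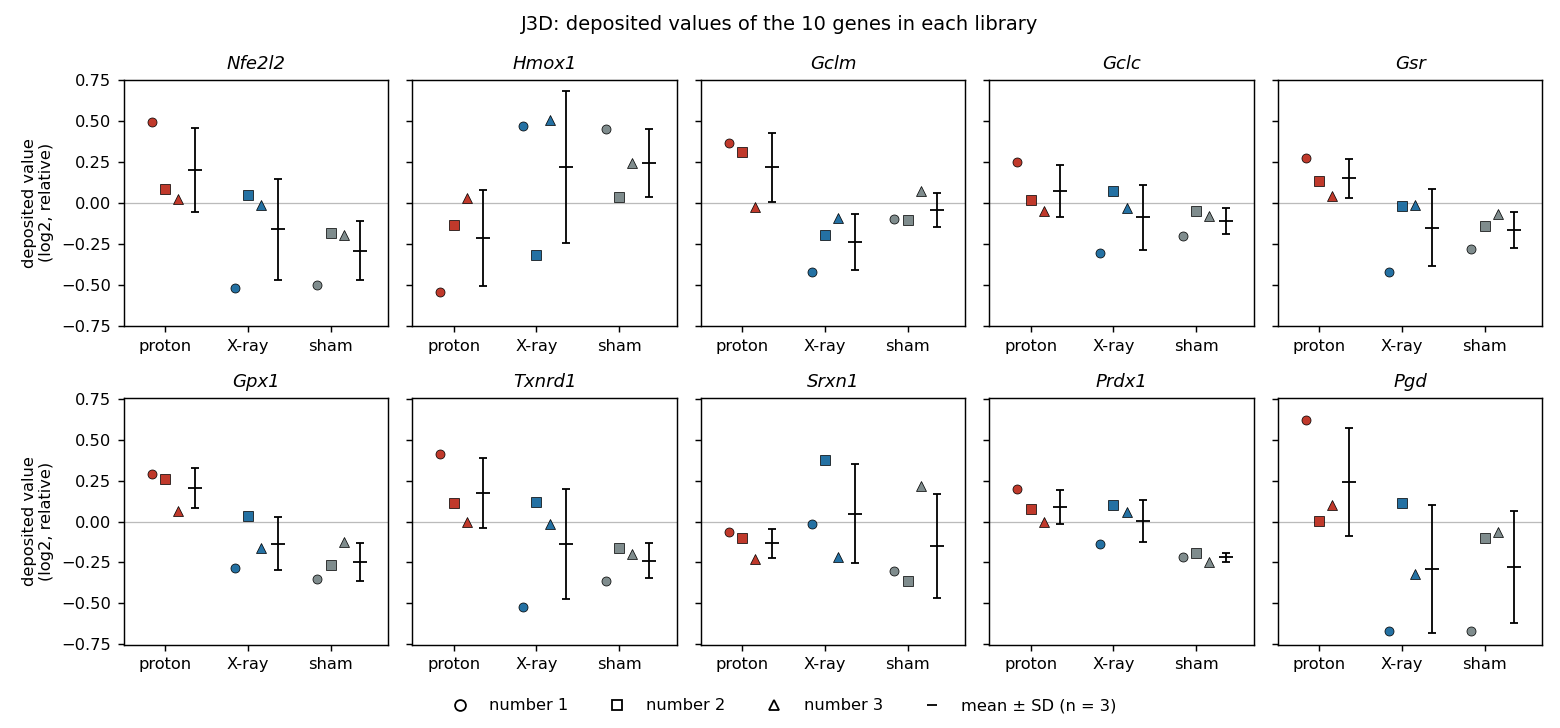
Deposited values (log2, relative; vertical axis) of the 10 mouse genes in the 9 J3D libraries, by group and library number, with mean and SD beside each group. Library 1 (circles) of Pgd lies at 0.62 after protons and at −0.67 in both the X-ray and the sham group.

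The remaining mouse genes overlapped between groups in the comparisons with sham. Gclm, the modifier subunit gene, had values of 0.37, 0.31 and −0.026 after protons and −0.42, −0.19 and −0.092 after X-rays, against −0.099, −0.11 and 0.075 in sham cells. Its fold change was 0.26 ± 0.12 after protons (limma adjusted p = 0.256) and −0.19 ± 0.12 after X-rays (0.897). Gclc was at 0.18 ± 0.12 and 0.021 ± 0.124, and Srxn1 at 0.017 ± 0.196 and 0.20 ± 0.20. Between the beams 0 of 10 members and 0 of all genes passed in J3D (limma), and 3 of 10 had an unadjusted p under 0.05, against 11.9% of all genes (1 of 10 and 4.96% with the replicate block). Gclm had the smallest p of the 10 in that comparison, with 0.45 ± 0.12 for protons relative to X-rays (limma adjusted p = 0.392), or 0.28 without number 1. Its proton libraries lay above its X-ray libraries, as did those of Gsr and Gpx1, 3 of 10 genes against 8.78% of all genes. The fold change was above 0 for 8 of 10 genes (57.2% of all genes), with a median of 0.31, or 0.019 without number 1. Of the further pathway genes 47 were measured in J3D, and 0 of them passed in any of the 3 comparisons, the median fold change being −0.068 after protons and −0.044 after X-rays. Nqo1 was at 0.22 ± 0.15 after protons and −0.044 ± 0.153 after X-rays, Keap1 at 0.061 ± 0.114 and −0.061 ± 0.114, and Bach1 at 0.079 ± 0.085 and 0.057 ± 0.085. The cystine transporter gene Slc7a11 was at −0.35 ± 0.18 (limma adjusted p = 0.275) and −0.69 ± 0.18 (0.586).

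**Figure D5:**
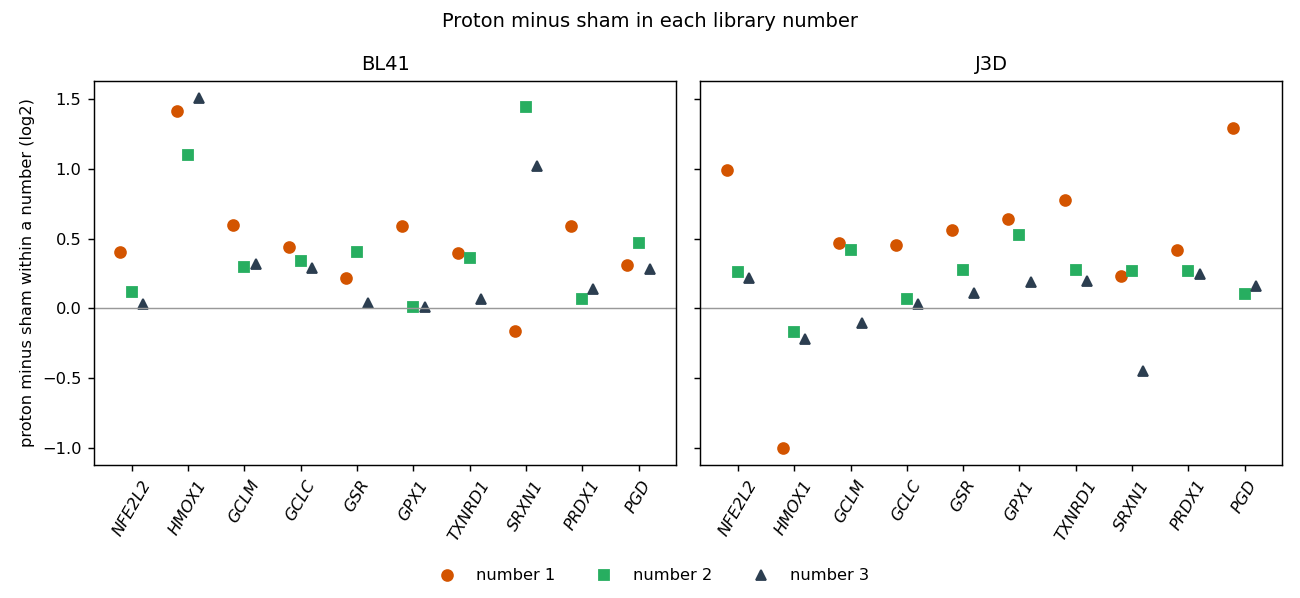
Proton minus sham within each library number (log2, vertical axis) for the 10 genes in BL41 and J3D. HMOX1 lies between 1.097 and 1.503 in BL41 and between −0.996 and −0.17 in J3D, where number 1 (circles) is the highest for 8 genes and the lowest for Hmox1.

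Over the 9 J3D libraries the genes most like Hmox1 were Zfyve21 (Pearson r = 0.969), Cbr4 (0.963), Selenbp1 (0.961), Zfp395 (0.960) and Zdhhc9 (0.960), a list that shares no gene with that of BL41. Each of them was below 0 after protons, from −1.16 for Selenbp1 to −0.26 for Cbr4, and none passed the test. In J3D r with Hmox1 was below 0 for the other 9 genes, between −0.908 for Pgd and −0.320 for Srxn1. In BL41 all 9 values of r were above 0. The widely spread J3D libraries of number 1 enter these r. There Hmox1 was at −0.54, 0.47 and 0.45 (proton, X-ray, sham) and Pgd at 0.62, −0.67 and −0.67. No r was computed without number 1. The J3D libraries also share 3 groups and a centring, so these r carry no test. The tables of the 2 lines were normalized separately, so no value was tested between them.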

How the data were processed

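RNA sequencing of 18 samples was read from 1 table per line. Per the submitters' processing notes, TopHat2 and the builds hg19 and mm10 were used; no source used here states the counting, annotation, normalization or strand. The authors deposited logarithms relative to a baseline, taken here to be log2 although the base is nowhere stated; any other base would rescale the fold changes and leave the tests as they are. Where 2 of the 3 values of a gene within a library number were tied at the lowest (within 1e-06), an additional value that would bring the mean to 0 lay exactly there for 52.9 to 62.5% of genes and below it for 0, which is how the centring within numbers was read. Depth is unknown, and the spread between libraries alone gives the precision.

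Each line was fitted on its 9 libraries with limma 3.58.1 (R 4.3.3, statmod 1.5.0; group means, trend, robust moderation), with Benjamini-Hochberg adjustment over all rows of the table and a threshold of 0.05. Rose, fell and higher, said of a fold change, mean past it. The library number was not a term, and a fit with it as a replicate block is printed beside each call. Because the centring removed a mean per number, the model without the block counts 6 residual degrees of freedom, more than the centring leaves, against 4 with it. Each SE after ± is from the model without the block, and for the 10 genes it was smaller than with the block. On the reading of the centring given above, the spread within groups shrinks while differences between groups stay as they were. The printed SE and unblocked p-values are then too small. Same-numbered libraries correlated between −0.73 and 0.31 in their deviations from group means, values that the centring pulls below 0, and no label says what the number marks. Both fits were also run on simulated data with independent errors, centred within each number as the deposited values were read to be. No effect of library number was added, and this centring would remove a shift shared by all libraries of a number. Those outcomes are not reported here, and no choice between the fits was drawn from them. The 10 genes and all lists were chosen with earlier results of these data known. Named beside the 10 are KEAP1, BACH1, NQO1 and SLC7A11, up to 6 further pathway genes per comparison with the smallest adjusted p, and the 5 genes most correlated with HMOX1; marker genes and members of the lists were matched by symbol, and 3 genes of these lists are not reported here. Promoters came from RefSeq (GRCh38.p14). Alternatives tried were the block, trimmed means (20% from each end), quantile normalization, plain moderation, only the groups compared, no tied genes, each library left out, number 1 left out, and a wider motif. Python 3.11.15, numpy 2.4.6, pandas 2.3.3 and matplotlib 3.10.9 made tables and plots.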

Additional observations from a re-analysis of the deposited data

Results flagged for a closer look

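For 3 genes every library number moved one way in BL41 and the other way in J3D. The difference between the lines was not tested, because their tables were normalized separately. HMOX1 after protons relative to sham was at 1.34 in BL41 (1.415, 1.097 and 1.503 in numbers 1 to 3) and at −0.46 in J3D (−0.996, −0.17 and −0.22). Without number 1 the J3D value was −0.19, and it passed in neither fit. GCLM after X-rays relative to sham was at 0.16 in BL41 (0.11, 0.26 and 0.12) and at −0.19 in J3D (−0.32, −0.087 and −0.17), and passed in neither. Its X-ray and sham libraries overlapped in J3D. SRXN1 after protons relative to X-rays was at 1.06 in BL41 (0.70, 1.44 and 1.03) and at −0.18 in J3D (−0.049, −0.48 and −0.015), and passed in neither. Its proton and X-ray libraries overlapped in J3D. In BL41 its X-ray value of number 2 lay within 1.38e-06 of sham and may be at the lowest measurable level, which was not tested.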

How the results depend on the processing

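With the replicate block 0 of the 10 genes and 0 of all genes were called in any comparison. Without it, 4 were called after protons and 2 after X-rays in BL41 (1027 and 806 of all genes). Labels do not say what the library number marks, and the centring prevents a check of whether it pairs samples. Those counts of 4 and 2 were 1 and 1 (HMOX1) with trimmed means or quantile normalization. Over all genes the counts were then 343 and 335 with trimmed means, and 533 and 129 with quantile normalization. The counts among the 10 genes were 0 and 0 with trimmed means and the block together, with only the 2 groups compared, and without number 1. In each of these settings 0 of all genes were called too. Leaving out 1 library at a time gave 0 to 3 after protons and 0 to 2 after X-rays (0 to 710 and 0 to 808 of all genes). In the other 4 comparisons 0 of the 10 genes and at most 1 of all genes were called under each setting run. Plain moderation (881 and 659 of all genes) and leaving out tied genes (1162 and 918) kept the counts of 4 and 2.

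Fold changes that changed sign had passed in no fit. In BL41 after X-rays these were, with trimmed means (block or not), TXNRD1 −0.063, PRDX1 −0.0031, GSR −0.039 and GCLC −0.075, with quantile normalization TXNRD1 −0.059, GSR −0.047 and GCLC −0.086, and without number 1 TXNRD1 −0.018. For protons against X-rays in BL41 they were HMOX1 −0.0085 with trimmed means and −0.13 without number 1, and GPX1 −0.071 without number 1. In J3D they were Srxn1 after protons (−0.023 with trimmed means, −0.089 with quantile normalization, −0.092 without number 1) and, for protons against X-rays without number 1, Gclc −0.038 and Prdx1 −0.042. The cause was not tested.

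With 1 library left out at a time, the following changed sign. After X-rays in BL41 TXNRD1 ranged from −0.036 to 0.13, PRDX1 from −0.0016 to 0.16, NFE2L2 from −0.094 to 0.022 and GCLC from −0.0027 to 0.050. For protons against X-rays in BL41 HMOX1 ranged from −0.070 to 0.063 and GPX1 from −1.65e-05 to 0.15. After X-rays in J3D Gsr ranged from −0.057 to 0.15, Txnrd1 from −0.028 to 0.29, Gclc from −0.060 to 0.13, Hmox1 from −0.17 to 0.24 and Pgd from −0.22 to 0.17. Srxn1 after protons in J3D ranged from −0.092 to 0.20. With the wider motif TGANNNNGC, 5 of the 9 promoter windows held a match, against 35.2% of all. Depth is unknown, so its limits on low genes could not be given.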
